A study of Mus musculus with 66 samples.

Results

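The integrated stress response genes described here were the 10 genes Atf4, Ddit3, Asns, Trib3, Chac1, Sesn2, Hspa5, Xbp1, Psat1 and Phgdh, a set given by name. All 10 were found among the 15856 genes of the 3'READS table, and 6 of them (Asns, Trib3, Sesn2, Hspa5, Xbp1 and Psat1) among the 9999 genes of the RNA-seq table. 3'READS sequences the ends of polyadenylated transcripts, so that its PASS reads (reads carrying untemplated Ts from the poly(A) tail) mark both the amount of a transcript and its poly(A) site. The cells were C2C12, an established mouse line grown here as myoblasts, that received siRNA at 50 nM and were harvested after 48 h. The siRNA was a control (siCtrl) or was directed against Paf1 (siPaf1), Cdc73 (siCdc73) or Ski8 (siSki8, gene symbol Wdr61). These are subunits of the Paf1 complex, which travels with RNA polymerase II, and Ski8 also belongs to the cytoplasmic Ski complex. Each assay had 7 libraries, with siCtrl, siPaf1 and siCdc73 each in 2 batches named by the labels and siSki8 in batch 2 alone. The study asked how loss of single subunits changes gene expression and the choice of poly(A) sites, and the stress response genes were followed here through the same libraries.

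When cells lack amino acids, or when unfolded proteins build up in the endoplasmic reticulum (ER), kinases phosphorylate the translation factor eIF2. General translation then falls while translation of the Atf4 mRNA rises, and the ATF4 protein switches on genes of amino acid synthesis, redox balance and cell death. The unfolded protein response adds 2 further branches in the ER membrane, ATF6 and IRE1, the latter acting through an unconventional splice of the Xbp1 mRNA. Atf4 and Ddit3 (CHOP) encode the transcription factors of the pathway, Asns, Psat1 and Phgdh enzymes of asparagine and serine synthesis, Trib3, Chac1 and Sesn2 feedback and effector proteins, and Hspa5 (BiP) and Xbp1 the main chaperone and a factor of the ER branch. Since translation of Atf4 and splicing of Xbp1 are the regulated steps, mRNA levels report on them only in part.

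The RNA-seq libraries held 2796693 to 8160386 counted reads, and the 3'READS libraries 5302728 to 14340927 PASS reads, with the smallest RNA-seq library in siPaf1 batch 2. Levels are given as TMM-scaled CPM (reads of a gene relative to the scaled library total), and fold changes are log2 with their standard error (SE). The knocked-down gene was lower than in both controls in each library of its own siRNA, by a log2 fold change of -2.36 (SE 0.25) for Paf1, -2.54 (SE 0.27) for Cdc73 and -4.09 (SE 0.41) for Wdr61 in RNA-seq. The myoblast markers summed to 16697 to 37813 CPM in RNA-seq and 1949 to 2853 CPM in 3'READS. Vim alone made up most of the RNA-seq sum, at 14918 to 34586 CPM, while Myf5 stood at 40.5 to 109 CPM there. Pax7 had 0 to 9 PASS reads. In RNA-seq it had 340 and 35 reads in siCtrl, 256 and 38 in siPaf1, 117 and 9 in siCdc73 and 14 in siSki8. Myod1, a defining myoblast gene, had only 0 to 8 PASS reads in any library and was not listed in RNA-seq. Markers of myotubes summed to 92.9 to 487 CPM in 3'READS and were highest in siPaf1 batch 2 (487 CPM, against 266 CPM in siCtrl batch 2), while those of fibroblasts were lowest in both siCdc73 libraries, at 33.2 and 20.5 CPM in 3'READS against 143 and 69.3 in siCtrl, and at 81.7 and 31.9 CPM in RNA-seq against 283 and 143. Pdgfrb made up most of the fibroblast sum in 3'READS, at 135 and 65.1 CPM in siCtrl and 26.3 and 17.3 in siCdc73. Pdgfra did not follow it there, at 7.35 and 1.89 CPM in siCtrl and 6.95 and 2.27 in siCdc73. In RNA-seq, Pdgfrb, Pdgfra and Dcn were each lower in siCdc73 than in siCtrl of the same batch. Of the 5 fibroblast markers 4 were listed in each assay, and Thy1 was at 0 in every RNA-seq library. The part of either marker list in the results was not tested. Markers of adipocytes, osteoblasts and macrophages stayed at or below 7.23 CPM. In the siPaf1 3'READS library of batch 2, 271 genes with at least 30 reads stood over 20-fold above every other library, holding 1.04% of its reads. None of them (0) was a stress response gene, and no other library of either assay had such genes.

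Libraries of the same batch deviated together, and the tests depended on how the batch was treated. With the knockdown alone in the edgeR model, 0 of 6521 RNA-seq genes (percent called 0) and 0 of 12579 3'READS genes were called at an adjusted p under 0.05 in any comparison, and so none of the stress response genes. At an unadjusted p under 0.05 the siCdc73 comparison held 648 higher and 729 lower RNA-seq genes, and the siPaf1 comparison 572 and 584. DESeq2 without the batch called 519 and 369 RNA-seq genes in these comparisons, among them 1 stress response gene, in siCdc73. With the batch of the labels as a block, edgeR called 39.9% of RNA-seq genes in siCdc73, 32.5% in siPaf1 and 5.43% in siSki8, and 22.5%, 18.8% and 0.151% of 3'READS genes. The blocked edgeR values are given below, and every call named was lost in edgeR without the block. No label says that the libraries of a group came from separate cultures, so p-values measure the spread between these libraries only.

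With the block, 1 of 6 stress response genes in RNA-seq was higher in siCdc73 (background 19.4% higher) and 2 were lower in siPaf1 (background 16.2% lower), while in siSki8 1 was higher (2.93%) and 1 lower (2.5%). In 3'READS, 1 of 10 was higher in siCdc73 (10.8%), 2 were lower in siPaf1 (9.08%), where 0 were higher (9.74%), and 0 were called in siSki8 (0.0795% higher and 0.0715% lower over all genes). The median log2 fold change of the 10 genes in 3'READS was -0.47 in siPaf1, -0.23 in siCdc73 and 0.11 in siSki8, beside 0.08, -0.02 and -0.06 over all genes tested. The 6 genes of RNA-seq had medians of -0.37, -0.11 and 0.13, beside 0.02, -0.02 and 0.02. Both signs occurred among the calls: Hspa5 was higher in siCdc73, Xbp1 and Psat1 were lower in siPaf1, and in siSki8 Asns was higher and Sesn2 lower.

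**Figure D1:**
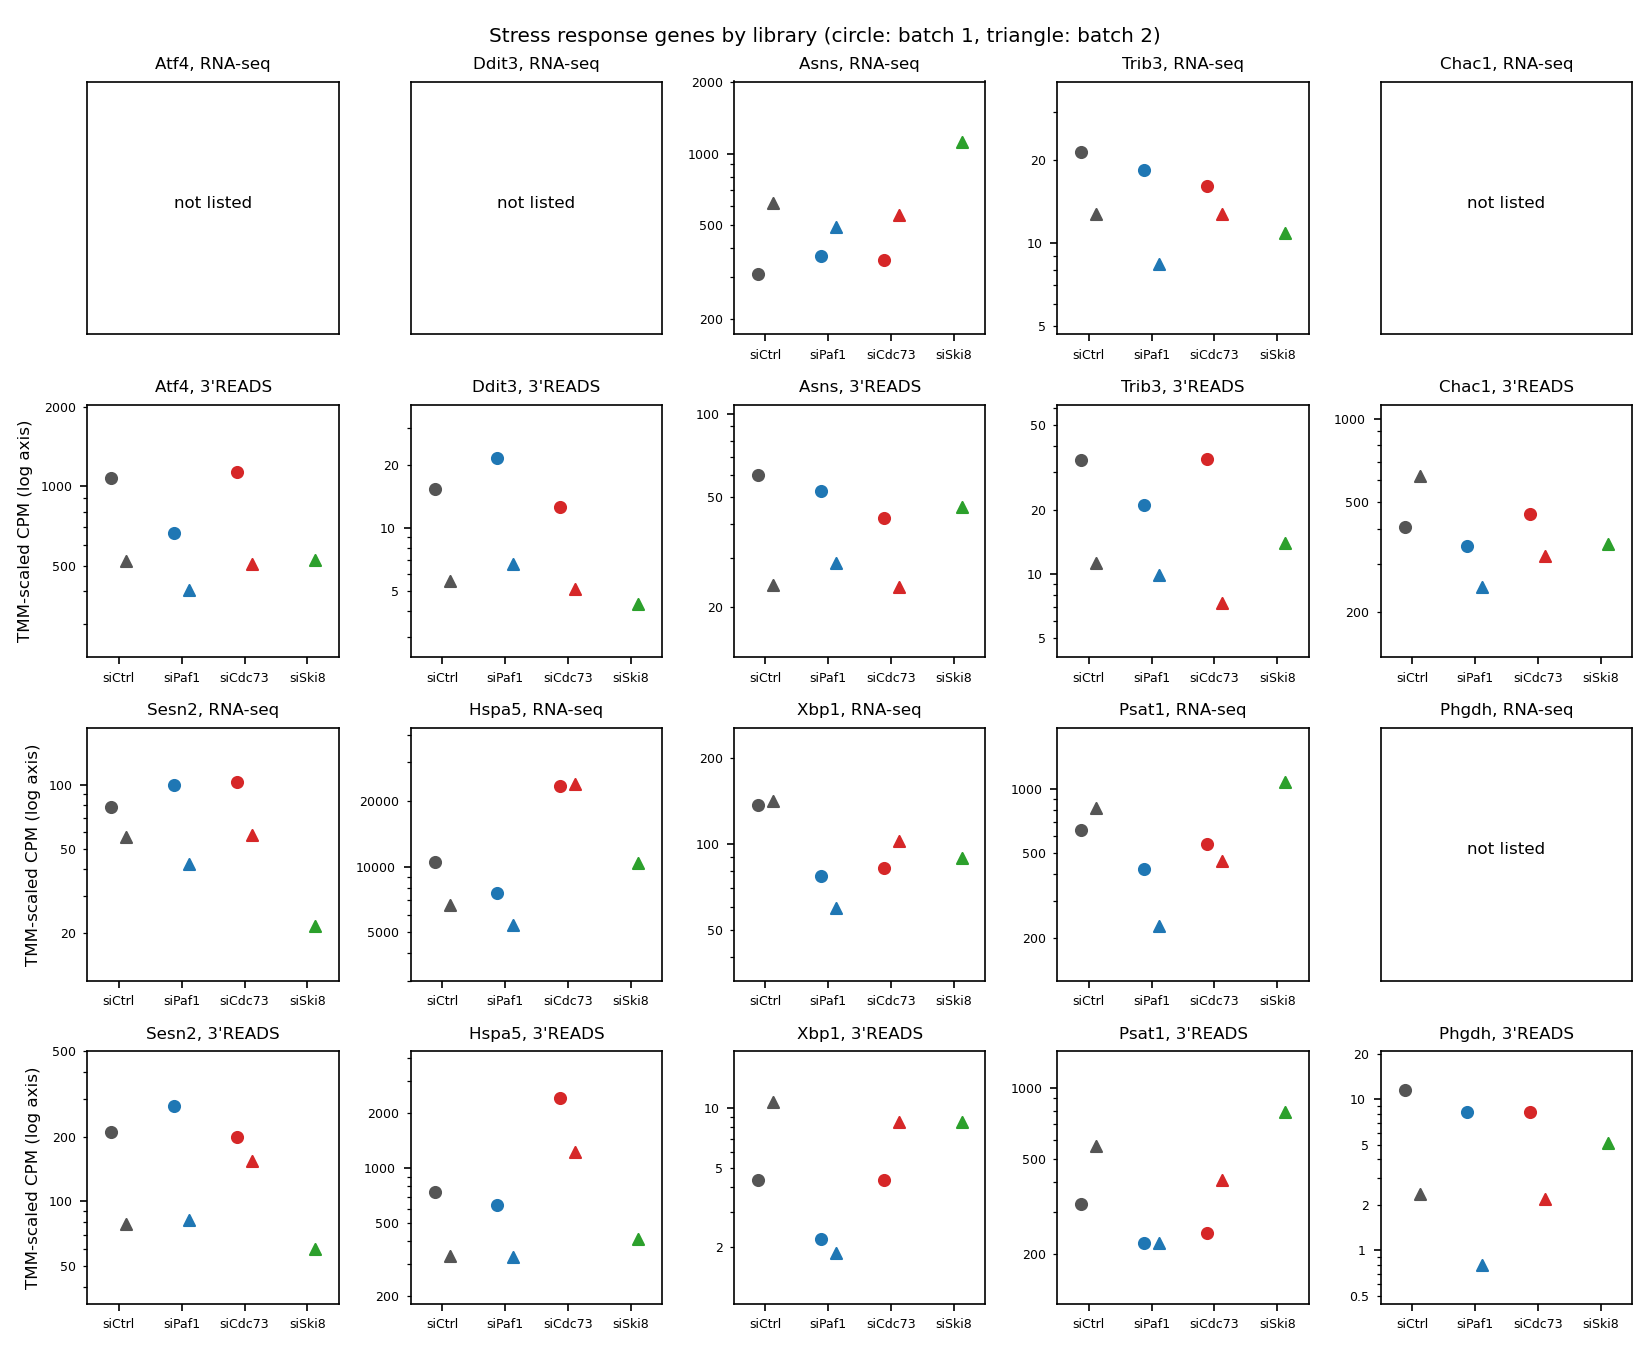
Level of each stress response gene in every library, in TMM-scaled CPM on log axes, with 1 panel per gene and assay. Circles are batch 1, triangles batch 2. Hspa5 stands apart in siCdc73 in both assays, while Atf4, Ddit3, Trib3, Sesn2 and Phgdh separate by batch in 3'READS.

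The transcription factor genes Atf4 and Ddit3 were read in 3'READS only. Atf4 was at 1074 CPM (batch 1) and 523 CPM (batch 2) in siCtrl, 667 and 405 in siPaf1, 1130 and 506 in siCdc73, and 527 in siSki8. The 3 libraries of batch 1 were all above the 4 of batch 2, and within each batch siCdc73 was close to siCtrl. The log2 fold change was -0.52 (SE 0.26, adjusted p 0.18) in siPaf1, 0.02 (SE 0.26) in siCdc73 and -0.02 (SE 0.34) in siSki8, none of them called. Ddit3 was at 15.3 and 5.58 CPM in siCtrl, 21.6 and 6.75 in siPaf1, 12.6 and 5.11 in siCdc73 and 4.32 in siSki8, from 38 to 167 reads. siPaf1 was the highest library of each batch, with a log2 fold change of 0.38 (SE 0.34, adjusted p 0.463), which was not called. Upstream of the Ddit3 start, PASS reads at an antisense-promoter site numbered 11 and 15 in siCtrl, 8 and 2 in siPaf1, 1 and 1 in siCdc73 and 9 in siSki8, too few for a comparison.

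Most of the stress response genes differed between batches in 3'READS. Atf4, Ddit3, Asns, Trib3, Sesn2, Hspa5 and Phgdh, 7 of the 10 genes, were lower in batch 2 in all 3 replicated groups, whereas 25.4% of all genes tested were lower in batch 2 in all 3. In siCtrl the ratio of batch 2 to batch 1 ran from 0.205 for Phgdh to 0.487 for Atf4 among these 7. In RNA-seq, Sesn2 and Trib3 were again lower in batch 2 in all 3 groups, at ratios of 0.719 and 0.594 in siCtrl, beside 33.5% of all genes. Asns went the other way there, at 1.99 in siCtrl. Batch 2 also held more myotube marker signal (123 against 21.1 CPM in the siCtrl RNA-seq libraries), and its part in the batch difference was not tested.

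Asns, the enzyme that makes asparagine from aspartate, carries in its promoter a CCAAT-enhancer binding protein and ATF response element (CARE), the composite site to which ATF4 binds with C/EBP partners. The element TGATGNAAN was found in 3 of the 10 genes' promoters, taken from RefSeq (build GRCm38.p6) and placed on mm9 by exact match, in Asns, Chac1 and Trib3. Of all 32851 promoters, 3.95% held it in the 250 bases before to 50 after the start, on either strand. The stretches are shown because they are the short sites through which these genes are known to answer ATF4, with the element in capitals.
Asns, chr6:7643213-7643242, minus strand: cccagccacaTGATGAAACttcccgcacgc
Chac1, chr2:119176774-119176803, minus strand: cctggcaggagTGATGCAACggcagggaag
Trib3, chr2:152169764-152169793, plus strand: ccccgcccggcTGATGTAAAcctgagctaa
The Asns element began 23 bases before the start and lies on the strand of the gene, that of Chac1 194 bases before and on the opposite strand, and that of Trib3 13 bases after and on the opposite strand.

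The 3 genes with the element differed in pattern across the libraries. Asns stood at 311 and 618 CPM in siCtrl RNA-seq, 369 and 488 in siPaf1, 357 and 551 in siCdc73 and 1121 in siSki8. The siSki8 library was the highest of the 7, above siCtrl of the same batch by 0.86 on the log2 scale. Against siCtrl, Asns was higher in siSki8 by a log2 fold change of 1.01 (SE 0.28, adjusted p 0.0299), and at -0.05 (SE 0.22) in siPaf1 and 0.01 (SE 0.22) in siCdc73 it was not called. In 3'READS it stood at 59.9 and 24.0 CPM in siCtrl, 52.5 and 28.8 in siPaf1, 42.1 and 23.7 in siCdc73 and 45.8 in siSki8. The siSki8 difference had the same sign there, 0.76 (SE 0.36, unadjusted p 0.0483, adjusted p 0.425), without passing edgeR's test. The RNA-seq call rests on a single siSki8 library and was lost with scaling by library size alone (0.75, adjusted p 0.0975), when any of the siCtrl or siCdc73 libraries was left out (adjusted p 0.0608 to 0.193), and without the block.

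Trib3, a pseudokinase that ATF4 and CHOP induce and that feeds back on the pathway, was weakly expressed. Its RNA-seq level was 21.5 and 12.8 CPM in siCtrl, 18.4 and 8.37 in siPaf1, 16.1 and 12.8 in siCdc73 and 10.9 in siSki8, from 24 to 154 reads, with siPaf1 batch 2 the lowest. In 3'READS it was at 34.1 and 11.3 CPM in siCtrl, 21.2 and 9.86 in siPaf1, 34.5 and 7.31 in siCdc73 and 14.0 in siSki8, and the groups overlapped. No fold change of Trib3 passed the test, the largest being -0.42 (SE 0.33) in siPaf1 in 3'READS.

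Chac1, which degrades glutathione and is a late target of ATF4 and CHOP, was read in 3'READS only, at 407 and 623 CPM in siCtrl, 347 and 248 in siPaf1, 453 and 320 in siCdc73 and 353 in siSki8. Both siPaf1 libraries were below both controls. The fold change in siPaf1 of -0.82 (SE 0.31, adjusted p 0.0765) was not called, with a difference of -0.23 in batch 1 and -1.33 in batch 2. It passed the test without the siCtrl library of batch 1 (-1.34, adjusted p 0.0152), without the siPaf1 library of batch 1 (-1.08, adjusted p 0.00336) and without the filter on low counts (-0.83, adjusted p 0.0306).

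Sesn2 encodes sestrin 2, a leucine sensor that restrains the growth kinase mTORC1. In RNA-seq it stood at 78.5 and 56.5 CPM in siCtrl, 100 and 42.2 in siPaf1, 103 and 58.1 in siCdc73, and 21.5 in siSki8, the lowest of the 7 libraries. The siSki8 difference was -1.20 (SE 0.34, adjusted p 0.0353). In 3'READS, siSki8 was again the lowest, at 59.8 CPM beside 78.7 in siCtrl of the same batch, but the fold change of -0.51 (SE 0.42, adjusted p 0.715) did not pass. siCtrl batch 1 stood at 211 CPM there, siPaf1 at 278 and 82.2, and siCdc73 at 200 and 154, so that every library of batch 1 was above those of batch 2. The RNA-seq call was lost without siCtrl batch 2 (-0.83, adjusted p 0.428), without siCdc73 batch 1 (adjusted p 0.0585) or without siCdc73 batch 2 (adjusted p 0.060). So Asns and Sesn2, both ATF4 targets, lay on opposite sides of the control in the same siSki8 library.

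Hspa5 encodes BiP, the HSP70 of the ER lumen, which binds unfolded chains and holds the ER stress sensors inactive. It was by far the most abundant of the 6 genes per length, at 2136 and 1291 RPKM in siCtrl. Psat1 followed at 233 and 279 RPKM, Asns at 74.1 and 140, Xbp1 at 49.2 and 48.1, Sesn2 at 21.9 and 14.9 and Trib3 at 8.13 and 4.57, an order that held in both control libraries without overlap. The Hspa5 promoter held the full ER stress element (ERSE), the site of ATF6 with NF-Y, which 0.119% of all promoters held and none of the other 9 genes. It is shown because the gene is the classical reporter of the ATF6 branch, with the element, which began 65 bases before the start, in capitals.
Hspa5, chr2:34627540-34627569, plus strand: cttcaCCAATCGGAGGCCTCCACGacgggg
The unfolded protein response element TGACGTGG was found in 0 of the 10 promoters and in 0.676% of all.

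Hspa5 was higher in siCdc73 in both assays and both batches. RNA-seq read 10454 and 6670 CPM in siCtrl, 7560 and 5396 in siPaf1, 23330 and 23985 in siCdc73, and 10409 in siSki8. Both siCdc73 libraries were above the 5 others. The log2 fold change was 1.51 (SE 0.21, adjusted p 1.3e-06), with 1.16 in batch 1 and 1.85 in batch 2. In 3'READS the levels were 745 and 329 CPM in siCtrl, 625 and 326 in siPaf1, 2422 and 1220 in siCdc73 and 410 in siSki8. Again both siCdc73 libraries exceeded all others, by 1.79 (SE 0.27, adjusted p 0.000331), or 1.70 and 1.89 within the batches. Over all genes, 24.9% in RNA-seq and 22.8% in 3'READS had both siCdc73 libraries above both controls. The summed fibroblast markers, in 3'READS mostly Pdgfrb, were lowest in the same libraries, as given above.

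siPaf1 did not share the Hspa5 change. Its fold change was -0.39 (SE 0.20, adjusted p 0.141) in RNA-seq and -0.13 (SE 0.26, adjusted p 0.756) in 3'READS. Tested directly, siPaf1 was below siCdc73 by -1.90 (SE 0.21, adjusted p 1.03e-07) and by -1.93 (SE 0.27, adjusted p 0.000356), in a comparison where 13.6% and 6.3% of all genes were lower. In siSki8 it was at 0.49 (SE 0.26) and 0.24 (SE 0.33), not called. The Hspa5 calls held in each of the blocked alternatives and with any 1 of the siCtrl, siPaf1 and siCdc73 libraries left out. In edgeR without the block they were lost, with fold changes of 1.47 (adjusted p 0.133) and 1.76 (adjusted p 0.260) in siCdc73. The 5 genes whose levels followed Hspa5 most closely, by the smaller of the Pearson correlations over the 7 RNA-seq and the 7 3'READS libraries among 5610 genes, were Mrpl28, Upb1, Btd, Gla and Dnajb11 (smaller r from 0.898 to 0.932). For Asns they were Cndp2, Mrpl35, Fdps, Txn2 and Mrps16 (0.873 to 0.936). Libraries of 1 batch share their handling, so these are descriptions only.

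**Figure D2:**
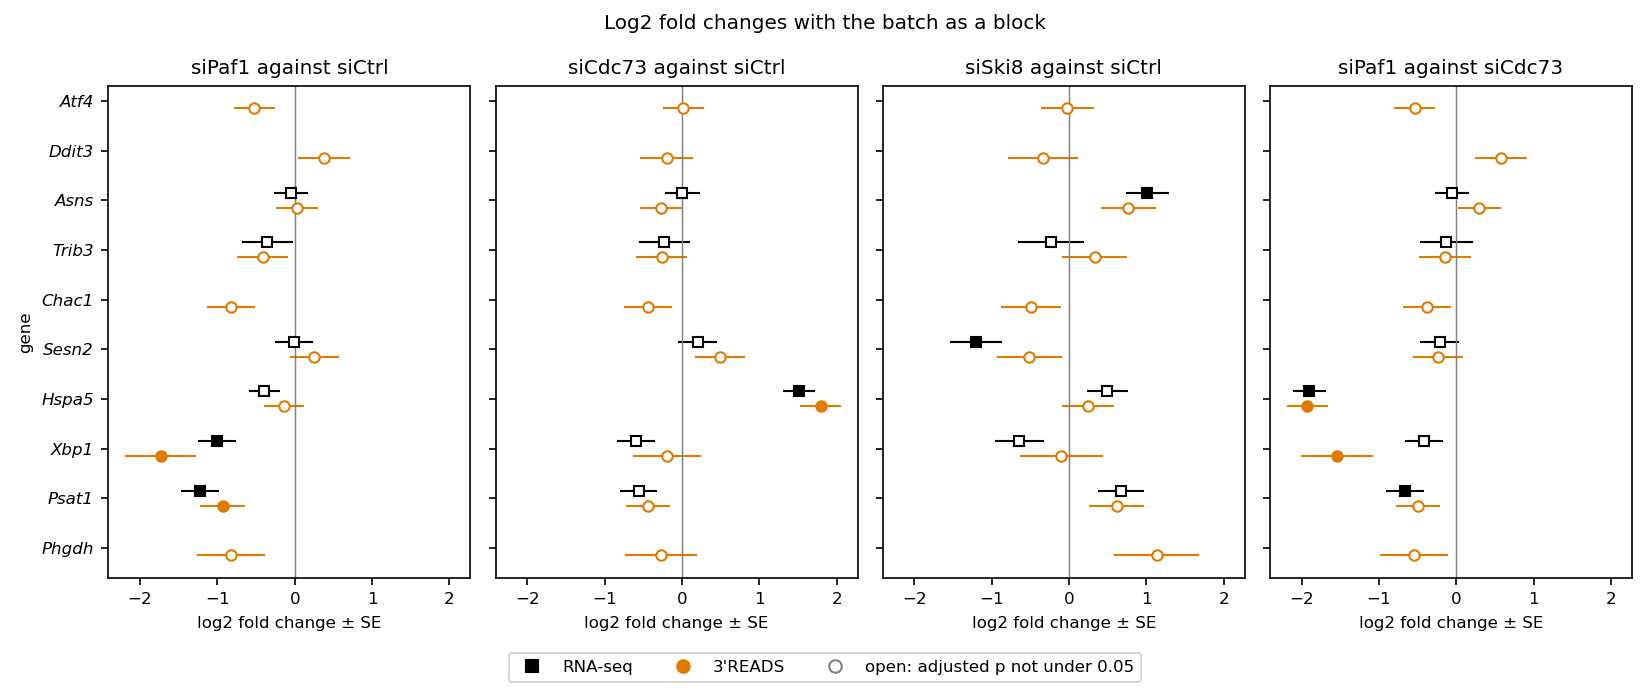
Log2 fold changes of the stress response genes in edgeR with the batch as a block, with bars for 1 SE. Squares are RNA-seq, circles 3'READS, and filled symbols passed an adjusted p of 0.05. Hspa5 lies at 1.51 and 1.79 in siCdc73, and Xbp1 and Psat1 lie below 0 in siPaf1 in both assays.

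Xbp1, which encodes the transcription factor of the IRE1 branch, was lower in siPaf1. RNA-seq read 136 and 141 CPM in siCtrl, 77.2 and 59.7 in siPaf1, 81.9 and 102 in siCdc73 and 88.8 in siSki8. Every knockdown library was below both controls, and siPaf1 batch 2 was the lowest. The log2 fold change was -1.01 (SE 0.24, adjusted p 0.00205) in siPaf1 and -0.59 (SE 0.24, adjusted p 0.0503) in siCdc73. The latter passed with scaling by library size alone (-0.77, adjusted p 0.0101) and without either siPaf1 library. In siSki8 it was -0.64 (SE 0.32, adjusted p 0.242). In 3'READS Xbp1 had few reads, 29 and 114 in siCtrl, 17 and 28 in siPaf1, 20 and 120 in siCdc73 and 75 in siSki8, or 4.35, 10.8, 2.19, 1.85, 4.34, 8.52 and 8.53 CPM. Both siPaf1 libraries were below both controls, by -1.73 (SE 0.46, adjusted p 0.0164), with -0.92 in batch 1 and -2.42 in batch 2. That call was lost without siCtrl batch 2 (-1.24, adjusted p 0.309), without siPaf1 batch 2 (-1.01, adjusted p 0.278) and in DESeq2 with the batch (adjusted p 0.0764), whereas the RNA-seq call in siPaf1 was kept in all blocked alternatives and with each library left out. In the direct comparison siPaf1 was below siCdc73 by -1.54 (SE 0.47, adjusted p 0.0379) in 3'READS, a call lost with library size scaling (adjusted p 0.0513), in DESeq2 (adjusted p 0.128), without siPaf1 batch 2 (-0.81) and without siCdc73 batch 2 (-1.32), and by -0.41 (SE 0.25, adjusted p 0.21) in RNA-seq, which was not called.

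The RNA-seq table lists Xbp1 under 2 RefSeq transcripts whose coding regions differ in length by a ratio of 1.39, as their RPKM values imply, and whose reads overlap. Reads over the longer region numbered 976 and 838 in siCtrl, 537 and 171 in siPaf1, 529 and 321 in siCdc73 and 610 in siSki8. The shorter region held 82.5% and 60.9% as many in siCtrl, 78.2% and 69.0% in siPaf1, 79.8% and 70.1% in siCdc73 and 61.8% in siSki8. The share was higher in all 3 libraries of batch 1 than in the 4 of batch 2. Since the coding regions share most of their bases, these counts do not measure the unconventional splice.

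The serine pathway enzyme Psat1, a phosphoserine aminotransferase, was also lower in siPaf1. In RNA-seq it was at 645 and 815 CPM in siCtrl, 420 and 227 in siPaf1, 550 and 459 in siCdc73 and 1076 in siSki8. Both siPaf1 libraries were below all others, and the siSki8 library was the highest. The siPaf1 fold change was -1.22 (SE 0.25, adjusted p 0.00031), with -0.62 in batch 1 and -1.84 in batch 2. Without siCtrl batch 2 it was -0.77 (adjusted p 0.0748). In siCdc73 it was -0.56 (SE 0.24, adjusted p 0.0647), which was not called, although it passed with library size scaling (-0.74, adjusted p 0.00982), without the filter on low counts (adjusted p 0.0439), without siCtrl batch 1 and without either siPaf1 library. siPaf1 was below siCdc73 by -0.66 (SE 0.24, adjusted p 0.0405), a call lost with library size scaling (-0.48), in DESeq2 (-0.69, adjusted p 0.0572), without siPaf1 batch 2 (-0.25) and without either siCdc73 library. In 3'READS Psat1 was at 323 and 566 CPM in siCtrl, 222 and 221 in siPaf1, 244 and 408 in siCdc73 and 790 in siSki8. There the siPaf1 fold change was -0.93 (SE 0.29, adjusted p 0.0327), and it was lost without siCtrl batch 2 (-0.72, adjusted p 0.371), without siPaf1 batch 2 (-0.56, adjusted p 0.244) and with library size scaling (adjusted p 0.0506). The siSki8 difference was 0.67 (SE 0.30) and 0.62 (SE 0.36) in the assays, not called in either.

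Phgdh, which makes the first step of serine synthesis, had 12 to 77 PASS reads per library. It stood at 11.6 and 2.36 CPM in siCtrl, 8.26 and 0.79 in siPaf1, 8.25 and 2.20 in siCdc73 and 5.12 in siSki8. The 3 libraries of batch 1 were the highest. Fold changes of -0.82 (SE 0.44) in siPaf1, -0.27 (SE 0.46) in siCdc73 and 1.13 (SE 0.55) in siSki8 did not pass.

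For some of the genes, both libraries of a knockdown lay outside both controls. In RNA-seq, Xbp1 and Psat1 lay below both controls in both siPaf1 libraries (background 23%) and in both siCdc73 libraries (26.3%). Hspa5 lay above them in siCdc73 (24.9%). In 3'READS, Chac1, Xbp1 and Psat1 lay below in siPaf1 (21.1%), and Hspa5 above in siCdc73 (22.8%). In siPaf1, 0 of 6 and 0 of 10 lay above (23.3% and 21.7%), and in siCdc73 0 of 10 lay below in 3'READS (23.7%). All comparisons with siCtrl share the same control libraries.

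The genes around the ER branch were taken from a list of 26 ER chaperones and ER-associated degradation factors, of which 25 were tested in 3'READS and 16 in RNA-seq (Hspa5 and Xbp1 not counted). In siCdc73, 6 were higher and 3 lower in 3'READS (10.8% and 11.8% over all genes), and 6 higher and 2 lower in RNA-seq (19.4% and 20.5%). In siPaf1, 1 was higher and 8 lower in 3'READS (9.74% and 9.08%), and 0 higher and 8 lower in RNA-seq (16.3% and 16.2%). The direct comparison found 12 of 25 and 11 of 16 lower in siPaf1 than in siCdc73 and 0 higher, beside 6.3% and 13.6% of all genes lower and 8.08% and 14.6% higher. The list's median in that comparison was -0.77 and -0.82, beside 0.05 and 0.02 over all genes tested. With any 1 library left out, 9 to 13 and 5 to 11 genes were lower in siPaf1 than in siCdc73, the 5 without siCdc73 batch 2, and without the block 0 were called. Against siCtrl the counts moved more: in 3'READS the genes lower in siPaf1 numbered 5 without siCtrl batch 1, 2 without siCtrl batch 2 and 5 without siPaf1 batch 2, and in RNA-seq the genes higher in siCdc73 numbered 2 without siCdc73 batch 2 and 3 without siCtrl batch 2. Without either siPaf1 library, 10 genes were higher in siCdc73 in 3'READS. In siSki8, 0 of 25 and 0 of 16 were called, and without the block 1 was lower at an unadjusted p under 0.05 in 3'READS and 0 in RNA-seq.

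Calr, the calcium-binding lectin chaperone, had the smallest p of the higher genes of the list in siCdc73 in 3'READS. It stood at 1033 and 1220 CPM in siCtrl, 795 and 1173 in siPaf1, 3993 and 5392 in siCdc73 and 964 in siSki8, a fold change of 2.04 (SE 0.26, adjusted p 0.00013). Dnajb9 (ERdj4), a co-chaperone of BiP, read 27.4 and 27.9 CPM in siCtrl, 28.9 and 22.7 in siPaf1, 96.1 and 80.8 in siCdc73 and 27.5 in siSki8 in RNA-seq. Only its siCdc73 libraries stood out, by 1.66 (SE 0.26, adjusted p 9.15e-06). Herpud1, an ER membrane protein of the degradation pathway that is on the ATF4 list too, rose in siCdc73 by 1.74 (SE 0.29, adjusted p 0.000753) in 3'READS, from 16.1 and 36.5 CPM to 49.9 and 131. Pdia4, a disulphide isomerase, rose in siCdc73 by 0.69 (SE 0.21) and fell in siPaf1 by a log2 fold change of -1.0 (SE 0.22) in RNA-seq. Its siCdc73 call was lost with library size scaling (adjusted p 0.0517), without either siCdc73 library and without siCtrl batch 2 (adjusted p 0.12 to 0.198).

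Other genes of the list moved in siPaf1 or in both knockdowns. Sdf2l1, a partner of ERdj chaperones, was at 31.4 and 30.4 CPM in siCtrl, 15.4 and 8.60 in siPaf1 and 60.8 and 40.2 in siCdc73 in 3'READS, and fell in siPaf1 by -1.42 (SE 0.30, adjusted p 0.00439), which was not called without siCtrl batch 2 (-1.08, adjusted p 0.128). Atf6, the sensor of the branch that acts on the ER stress element, fell in siPaf1 in RNA-seq by -1.87 (SE 0.25, adjusted p 9.08e-07), from 229 and 111 CPM to 72.6 and 25.1, while in siCdc73 it was at 235 and 87.8. Its 3'READS fold change in siPaf1 was 0.10 (SE 0.38), so the assays did not give the same picture. Its relative Atf6b was higher in siPaf1 in 3'READS by 1.31 (SE 0.37, adjusted p 0.0208), with 0.52 in batch 1 and 1.99 in batch 2. It was 2.05 without siPaf1 batch 1, and was not called without siPaf1 batch 2 (0.46) or siCtrl batch 2 (0.99). Canx, the membrane-bound lectin chaperone, fell in both knockdowns in RNA-seq, by -1.32 (SE 0.21) in siPaf1 and -1.34 (SE 0.21) in siCdc73. Derl2 fell in both in 3'READS, by -1.40 (SE 0.30) in siPaf1, not called without siCtrl batch 2 (adjusted p 0.061), and by -1.57 (SE 0.30) in siCdc73, not called without siCdc73 batch 2 (adjusted p 0.0586). Derl2 stood at 217 and 251 CPM in siCtrl there, 76.7 and 100 in siPaf1, 96.8 and 61.3 in siCdc73 and 65.5 in siSki8. Its siSki8 fold change, from a single library, was not called, and ran from -1.99 to -1.59 with 1 library left out. The absence of siSki8 calls in this list in 3'READS did not hold in every such fit. Ern1, which encodes IRE1 itself, did not pass in siPaf1 or siCdc73.

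**Figure D3:**
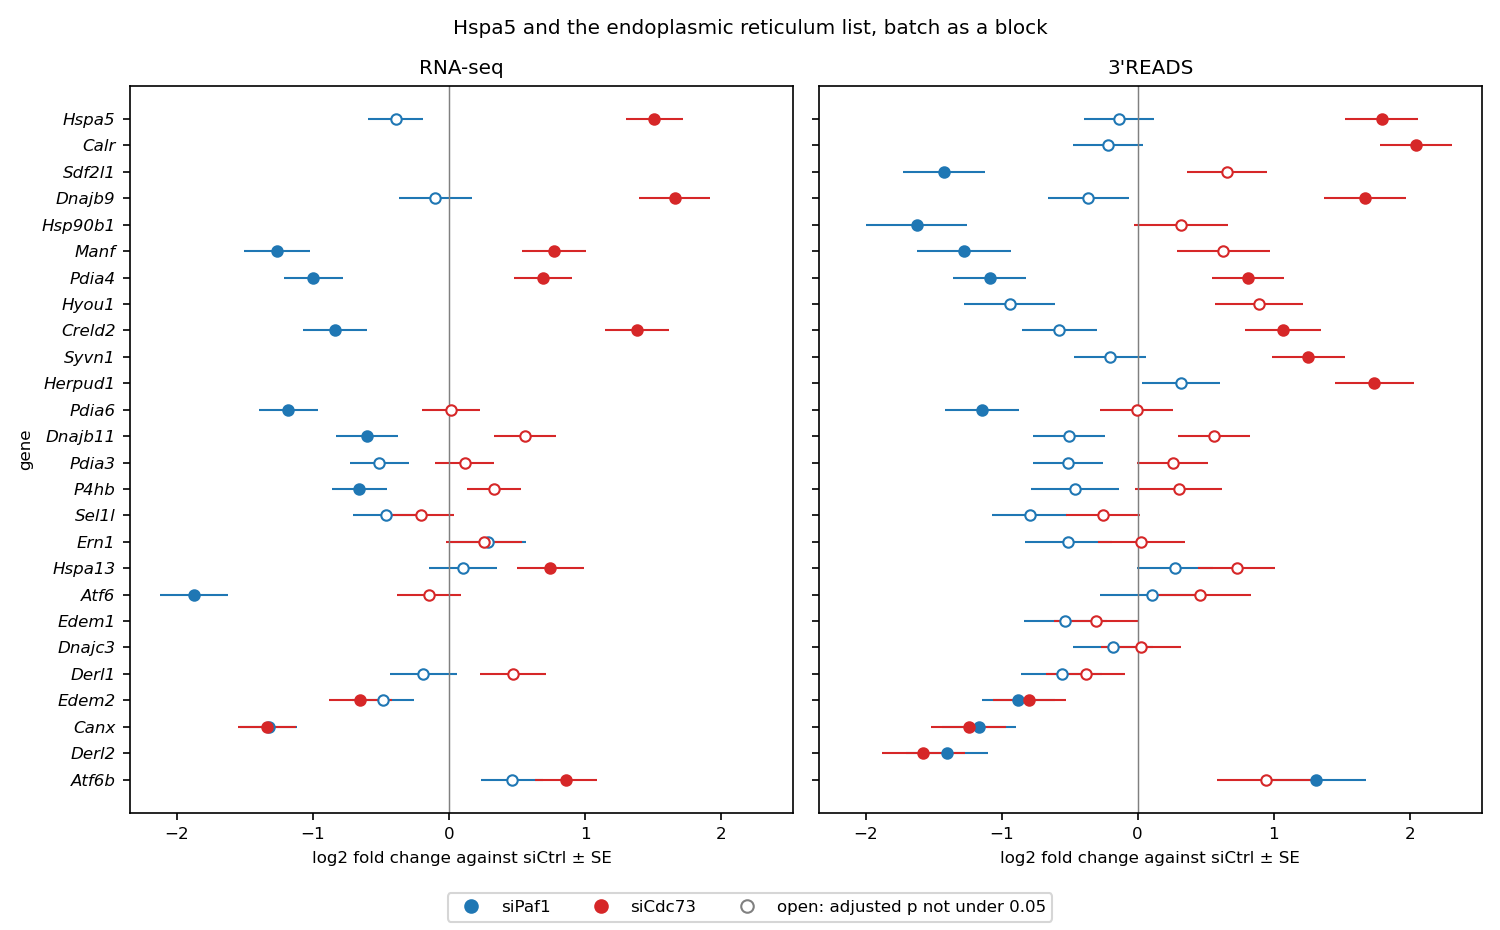
Log2 fold changes against siCtrl, with bars for 1 SE and the batch as a block, of Hspa5 and 25 genes of the ER list in RNA-seq (left) and 3'READS (right), siPaf1 in blue and siCdc73 in red. Hspa5 is placed first, and the list genes follow in order of the direct 3'READS difference. Filled symbols passed an adjusted p of 0.05, and genes without a symbol were not tested in that assay. In the upper rows siCdc73 lies to the right of siPaf1, which the ordering itself sets in 3'READS. Canx and Derl2 lie left of 0 in both knockdowns.

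Genes under the control of ATF4 and CHOP had calls in both directions. Of a list of 29, 26 were tested in 3'READS and 13 in RNA-seq. In siCdc73, 7 were higher and 5 lower in 3'READS (10.8% and 11.8% over all genes), and 3 higher and 4 lower in RNA-seq (19.4% and 20.5%). In siPaf1, 2 were higher and 5 lower in 3'READS (9.74% and 9.08%), and 2 higher and 4 lower in RNA-seq (16.3% and 16.2%). In the direct comparison 2 were higher and 5 lower in siPaf1 than in siCdc73 in 3'READS (8.08% and 6.3%), and 1 higher and 4 lower in RNA-seq (14.6% and 13.6%). With library size scaling the direct counts turned to 3 higher and 1 lower, and 3 higher and 0 lower. Without siCtrl batch 2, the siPaf1 counts were 0 higher and 1 lower in each assay, and without siCdc73 batch 2 the direct counts were 0 and 1 in 3'READS and 0 and 0 in RNA-seq. The direct counts were 3 and 1 in 3'READS and 0 and 1 in RNA-seq without siCdc73 batch 1, and 2 and 3, and 2 and 0, without siPaf1 batch 2. In siCdc73, 4 to 7 were higher and 3 to 6 lower in 3'READS with 1 library left out, and 1 to 3 and 2 to 4 in RNA-seq. Apart from siCtrl batch 2, the libraries left out 1 at a time gave 0 to 2 higher and 4 to 6 lower in siPaf1 in 3'READS and 0 to 1 higher and 1 to 4 lower in RNA-seq. Cebpb, a C/EBP factor that pairs with ATF4, rose in RNA-seq in siCdc73 by 1.34 (SE 0.24) and in siPaf1 by 0.65 (SE 0.24, adjusted p 0.0367), from 134 and 66.3 CPM to 260 and 221, and to 197 and 114. The siPaf1 call was lost without siCtrl batch 2 (0.42, adjusted p 0.477), without siPaf1 batch 1 (adjusted p 0.0735) and without either siCdc73 library (adjusted p 0.0536 and 0.0633). Gdf15, a secreted stress cytokine, fell in both, from 236 and 250 CPM to 77.1 and 72.8 in siCdc73 and 122 and 91.1 in siPaf1, by -1.70 (SE 0.24) and -1.19 (SE 0.24). Stc2, a secreted glycoprotein, had 79 and 139 reads in siCtrl, 3 and 0 in siCdc73 and 23 and 35 in siPaf1 in 3'READS, and was called lower in siCdc73 with a fitted value of -4.97 that depends on the prior count. Atf5, a factor translated like Atf4, was the gene of the list called in siSki8 in RNA-seq, at 17.0 CPM beside 53.1 and 44.9 in siCtrl (-1.34, SE 0.38, adjusted p 0.0340). That call was lost in DESeq2 with the batch (adjusted p 0.0509) and without any 1 of the siCtrl or siCdc73 libraries (adjusted p 0.0536 to 0.228). Atf5 was called lower in siPaf1 and siCdc73 too, in both assays, though not in every fit with 1 library left out. In those fits its RNA-seq fold change ran from -1.21 to -0.49 in siPaf1 and from -1.21 to -0.61 in siCdc73. In siSki8 in 3'READS Atf5 was not called, at 16.4 CPM beside 62.1 and 19.7 in siCtrl. That fold change ran from -0.42 to -0.18 with 1 library left out. Nupr1, a stress-induced chromatin protein, was higher in siPaf1 in 3'READS (1.09, SE 0.32), with 0.51 in batch 1 and 1.56 in batch 2. It was 1.63 without siPaf1 batch 1, and was not called without siPaf1 batch 2 (0.43) or siCtrl batch 2 (0.89). Nupr1 was called higher in siCdc73 in 3'READS too, at 2389 and 620 CPM beside 875 and 281 in siCtrl. With 1 library left out its siCdc73 fold change ran from 0.85 to 1.67, and the call did not hold in every fit. Slc7a1, a transporter of cationic amino acids, was lower in siPaf1 in 3'READS (-1.37, SE 0.29).

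Among genes of serine, glycine and one-carbon synthesis, the calls in siPaf1 and siCdc73 were lower ones, apart from Mtr. Of a list of 14 (Psat1 and Phgdh not counted), 13 were tested in 3'READS and 8 in RNA-seq. In siPaf1, 5 and 6 were lower (9.08% and 16.2% over all genes) and 0 higher, and in siCdc73, 5 and 5 were lower (11.8% and 20.5%) and 1 and 0 higher (10.8% and 19.4%). The medians were -0.97 and -0.89 in siPaf1 and -0.82 and -1.04 in siCdc73. Aldh1l2, a mitochondrial folate enzyme, fell in RNA-seq from 181 and 90.5 CPM to 65.0 and 23.4 in siPaf1 (-1.69, SE 0.25) and 65.2 and 23.0 in siCdc73 (-1.70, SE 0.25). Tyms, the thymidylate synthase of dividing cells, fell in 3'READS from 316 and 258 CPM to 114 and 61.4 in siPaf1 (-1.77, SE 0.28) and 101 and 61.8 in siCdc73 (-1.86, SE 0.28). Mtr, methionine synthase, was higher in siCdc73 in 3'READS (1.25, SE 0.41). Its call was lost in DESeq2 with the batch (adjusted p 0.107), with sites of the 3'-most exon alone (adjusted p 0.0826), without siCdc73 batch 2 (1.01) and without siCtrl batch 2 (0.63), and it was 1.89 without siCtrl batch 1. With 1 library left out, 1 to 7 genes were lower in siPaf1 in RNA-seq and 3 to 6 in 3'READS, and 3 to 6 and 2 to 6 in siCdc73. The lowest siPaf1 counts (1 and 3) and the lowest siCdc73 count in 3'READS (2) were those without siCtrl batch 2. In siSki8, 0 were called in either assay, and 0 at an unadjusted p under 0.05 without the block. There 11 of 13 and 6 of 8 fold changes were above 0 with the block (46.6% and 51.6% of all genes), with medians of 0.36 and 0.39. The absence of siSki8 calls did not hold in every fit with 1 library left out, in either assay. In these fits the siSki8 fold change of Psph ran from 1.34 to 2.14 in 3'READS and from 0.75 to 0.99 in RNA-seq. Psph stood at 205 CPM in siSki8 in 3'READS, beside 79.1 and 81.0 in siCtrl.

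Aminoacyl-tRNA synthetases, of which ATF4 is known to induce many, had calls in both directions in siCdc73 and lower ones only in siPaf1. In siCdc73, 2 of 20 were higher and 5 lower in 3'READS (10.8% and 11.8% over all genes), and 2 of 10 higher and 3 lower in RNA-seq (19.4% and 20.5%). In siPaf1, 3 were lower in each assay (9.08% and 16.2%) and 0 higher. The single siSki8 library of each assay gave no call. Its fold changes were above 0 for 16 of 20 and 7 of 10 synthetases (46.6% and 51.6% of all genes). Their medians were 0.47 and 0.26, beside -0.06 and 0.02 over all genes. The absence of siSki8 calls did not hold in every fit with 1 library left out, in either assay. In these fits the siSki8 fold change of Cars in 3'READS ran from 1.28 to 1.41. Cars stood at 148 CPM in siSki8 there, beside 121 and 60.7 in siCtrl. The siCdc73 counts in 3'READS were 0 higher and 1 lower without siCtrl batch 2, 0 and 3 without siCdc73 batch 2, 1 and 3 without siCtrl batch 1, 2 and 2 without siCdc73 batch 1, and 4 to 5 and 8 without either siPaf1 library. In RNA-seq, 0 were higher without siCdc73 batch 2 and 1 without siCtrl batch 2. In siPaf1 in 3'READS, 0 were lower without siCtrl batch 2 and 1 without siPaf1 batch 2. Dars, the aspartyl-tRNA synthetase, fell from 578 and 672 CPM to 216 and 248 in siPaf1 and 207 and 184 in siCdc73 in RNA-seq, by -1.43 (SE 0.23) and -1.67 (SE 0.23). Tars, the threonyl enzyme, rose in siCdc73 in RNA-seq by 0.95 (SE 0.21), not called without siCdc73 batch 2 (adjusted p 0.0548). The phenylalanyl enzyme has 2 subunits, of which Farsa rose in siCdc73 in 3'READS by 1.10 (SE 0.28) while Farsb fell by -1.28 (SE 0.27). Farsa was not called without siCtrl batch 2 (0.80) or siCdc73 batch 2 (0.93), and Farsb was not called without siCtrl batch 2 (adjusted p 0.0607). Vars, the valyl enzyme, was called lower in both siPaf1 and siCdc73, in each assay. In 3'READS its siPaf1 fold change was -1.25 (SE 0.31), not called without siCtrl batch 2. With 1 library left out, the RNA-seq fold change of Vars ran from -1.16 to -0.99 in siPaf1 and from -1.04 to -0.95 in siCdc73. In 3'READS the siCdc73 value ran from -1.39 to -0.68, and that call did not hold in every fit.

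Of the eIF2 kinases, phosphatase subunits and exchange factor, 2 of 15 were higher and 1 lower in each of siCdc73 (10.8% and 11.8% over all genes) and siPaf1 (9.74% and 9.08%) in 3'READS. In RNA-seq, 1 of 6 was higher and 1 lower in siCdc73 (19.4% and 20.5%), and 1 higher and 0 lower in siPaf1 (16.3% and 16.2%). Without siCtrl batch 2, 1 was higher and 0 lower in siCdc73 and 0 were called in siPaf1 in 3'READS. Ppp1r15a (GADD34), which directs the phosphatase back to eIF2 and is itself an ATF4 target, rose in siCdc73 in 3'READS by 1.45 (SE 0.31), from 6.45 and 13.4 CPM to 18.9 and 35.6. Eif2ak4 (GCN2), the kinase that senses uncharged tRNA, fell in siCdc73 in both assays, by -1.25 (SE 0.23) in RNA-seq and -1.06 (SE 0.28) in 3'READS, the latter not called without siCdc73 batch 1 or either siCtrl library (adjusted p 0.0591 to 0.17). Eif2ak3 (PERK), the kinase of the ER membrane, was called lower in siPaf1 in 3'READS (-1.42, SE 0.43) from 43 and 56 reads in siCtrl and 17 and 29 in siPaf1. That call was lost without any 1 of these 4 libraries (adjusted p 0.0756 to 0.218), in DESeq2 with the batch (adjusted p 0.14) and with sites of the 3'-most exon alone (adjusted p 0.0569). Eif2ak1, the heme-regulated kinase, was higher (1.01, SE 0.29), not called without siCtrl batch 2 (0.76) or siPaf1 batch 2 (0.72). Eif2s3x, which encodes the gamma subunit of eIF2, rose in RNA-seq in siCdc73 (1.21, SE 0.32) and in siPaf1 (0.93, SE 0.32), although a near-identical paralogue may share reads with it. The siCdc73 call was lost without siCdc73 batch 1 (0.86) or siCtrl batch 1 (0.91), and the siPaf1 call in DESeq2 with the batch (adjusted p 0.0683) and without siPaf1 batch 1 or either siCtrl library (adjusted p 0.0545 to 0.383).

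Poly(A) site choice could be compared for 3 of the stress response genes, Atf4, Asns and Ddit3, which had more than 1 site in the 3'-most exon holding at least 5% of the gene's reads. The Atf4 proximal site, at position 80087309 of chromosome 15 (mm9, plus strand), lies in the annotated coding part of the last exon, 581 bases before the end of the stop codon. The distal site at 80087971 lies 1 base past the annotated end of the gene. Both carry the canonical signal in the 40 bases before the cleavage site, as do 43.3% of all 38550 sites of this type, while 2 of the 20 bases after the proximal site are A. The windows are shown because the first is a signal inside the reading frame, with AATAAA in capitals.
Atf4 proximal, chr15:80087280-80087309, plus strand: tAATAAAagtcgaccaggttgcccccttta
Atf4 distal, chr15:80087942-80087971, plus strand: gctgtAATAAAttattttgtagtgaaagta
The proximal site held 4.64% of Atf4 reads in siCtrl batch 1 (95% Wilson interval 4.17% to 5.15%) and 9.53% in batch 2 (8.79% to 10.3%). It held 6.0% and 12.9% in siPaf1, 5.26% and 14.8% in siCdc73, and 19.5% (18.4% to 20.7%) in siSki8. Each knockdown library was above the control of its own batch, and the siSki8 library was the highest of the 7, while batch 2 was above batch 1 in all 3 replicated groups. The log2 ratio of proximal to distal reads differed from siCtrl by 1.10 (SE 0.50, unadjusted p 0.0284, adjusted p 0.550) in siSki8, 0.46 (SE 0.38) in siCdc73 and 0.44 (SE 0.38) in siPaf1 with the block, and none was called. The same difference over all 4567 genes tested with the block had a median of 0.30 in siPaf1, 0.41 in siCdc73 and 0.40 in siSki8. It was above 0 in 61.6%, 66.9% and 67.2% of these genes. The intervals cover counting error only.

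Asns is read to its main site at 7625169 (chromosome 6, mm9, minus strand), the annotated end of the gene, with 2 further sites 358 and 2434 bases past it. The farthest site, at 7622735, held 12.5% of Asns reads over all libraries, from 98 and 41 reads in siCtrl, 79 and 30 in siPaf1, 32 and 10 in siCdc73 and 13 in siSki8, and it did not enter the test, which used the most used pair. The window of the main site, minus strand of chr6:7625169-7625198 with the signal in capitals, is shown for comparison with that of Atf4.
Asns proximal: tgaaaagaAATAAAagtttcacatctgaaa
The proximal share of the pair's reads was 86.0% and 87.8% in siCtrl, 86.3% and 70.9% in siPaf1, 70.4% and 81.5% in siCdc73 and 88.7% in siSki8. A single library of siPaf1 and another of siCdc73 were low, in different batches, and no difference passed (-0.79, SE 0.57 in siPaf1, and -1.01, SE 0.58 in siCdc73). Ddit3 used its proximal site for 87.5% to 98.2% of reads, with only 2 to 9 reads at the distal site per library, and the groups overlapped. Over all 4567 genes tested with the block, 6.55% changed between siPaf1 and siCtrl, 4.29% in siCdc73 and 0.0657% in siSki8, and 0 of the 3 stress response genes did. Without the block 0 genes were called, and 0 of the 3 had an unadjusted p under 0.05.

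**Figure D4:**
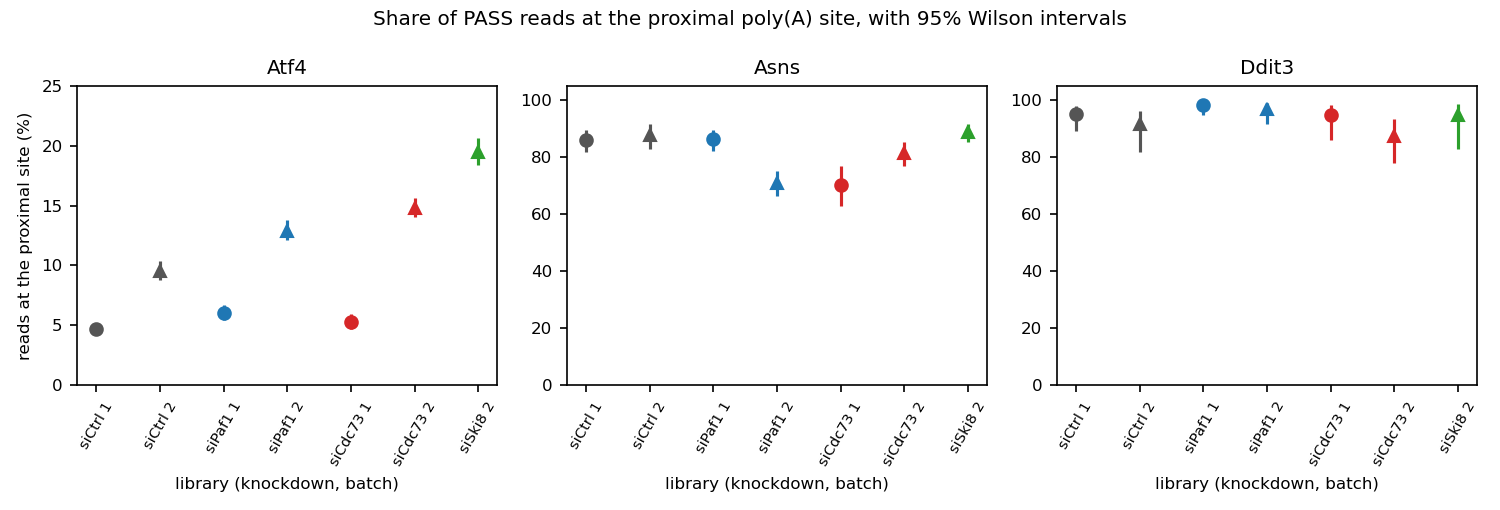
Share of PASS reads at the proximal of the 2 most used poly(A) sites of Atf4, Asns and Ddit3 in each library, with 95% Wilson intervals, on separate linear scales from 0. Circles are batch 1, triangles batch 2. For Atf4 the share runs from 4.64% in siCtrl batch 1 to 19.5% in siSki8.

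None of the 10 genes (0) entered the test of coding region and intronic poly(A) sites. Intronic PASS reads were seen only for Phgdh (10 of its 292 reads) and Xbp1 (5 of 403), each site under 5% of the gene's reads. Hspa5 was read almost wholly at 1 site, at 34631976 of chromosome 2 and 75 bases before the annotated end, with 96.5% of its reads. Chac1, Psat1, Sesn2 and Trib3 had a single site each. The rise of Hspa5 in siCdc73 was seen at that site, which had 4779 and 3263 reads in siCtrl and 10813 and 16630 in siCdc73.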

How the data were processed

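RNA-seq and 3'READS tables of 7 libraries each were used, 14 of the 66 samples of the series; the other samples, ChIP-seq, were not used here. The authors mapped both kinds of reads to mm9 with Bowtie2 and deposited read counts per RefSeq transcript, over coding regions, and counts of PASS reads per poly(A) site, both without normalization; RPKM values, scaled by the authors for length and mapped reads, were used only to order genes by level. Versions are not given in the sources used here. Groups and batches came from the labels, and the numbers pair the samples because they mark a shared batch. Batch differences correlated between groups at r of 0.62 to 0.748 in RNA-seq and 0.432 to 0.61 in 3'READS.

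Of each gene, the transcript with most reads on average was used (15033 transcripts of 9999 genes); in 3'READS the sense sites were summed. The transcripts of Hspa5, Xbp1 and Psat1 share reads. edgeR 4.0.16 in R 4.3.3 (TMM, filterByExpr, quasi-likelihood test, prior count 2, Benjamini-Hochberg over all genes tested) was fitted on all 7 libraries, and the unreplicated siSki8 library is thereby assumed to vary like the other groups. The fit without the batch was the planned one, and the batch block was the alternative, printed because it changes calls. Poly(A) site choice was tested as an isoform by knockdown interaction, leaving out sites under 5% of a gene and requiring 20 reads per library on average. DESeq2 1.42.0, other scalings, filters and left-out libraries were alternatives. The fits were tested on simulated data with 2-fold changes in siPaf1 and 1 spread for all genes. With a batch difference, the fit without the block recovered 0 of 198 changed genes in each assay. The blocked fit recovered 92 in RNA-seq (5 false calls) and 73 in 3'READS (10 false calls). Without a batch difference, the fit without the block recovered 96 of 197 and 72 of 187, and the blocked fit 77 and 63.

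The members and gene lists were chosen with earlier results of these data known. Named genes were the members, the targeted genes, the genes most like Asns and Hspa5, and, per list, assay and knockdown, the called gene with the smallest p in each direction in the blocked fit. Pdia4 and Ern1 were chosen after their values were seen. Sequences came from the NCBIM37 genome, which is mm9, with Gencode vM1, and RefSeq promoters. Python 3.11.15, pandas 2.3.3, numpy 2.4.6 and matplotlib 3.10.9 were also used. Wilson intervals at 95% cover counting error only, since no molecular identifiers were counted. Unmatched per-sample columns numbered 0.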

Additional observations from a re-analysis of the deposited data

How the results depend on the processing

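The batch as a replicate block decided the calls in edgeR. Genes called in siCdc73, siPaf1, siSki8 and the direct comparison of siPaf1 with siCdc73 numbered 2601, 2122, 354 and 1841 with the block in RNA-seq and 2832, 2367, 19 and 1809 in 3'READS, against 0 without it. The stress response genes among them numbered 1, 2, 2 and 2 in RNA-seq and 1, 2, 0 and 2 in 3'READS. In siCdc73, siPaf1 and siSki8 the block gave 196, 299 and 3 genes with changed poly(A) sites in the 3'-most exon, against 0, and 401, 409 and 1 with changed coding region or intronic sites, against 64, 39 and 0.

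Without the block, the fold changes that changed sign were all uncalled: Asns in siPaf1 3'READS (-0.044) and siCdc73 RNA-seq (-0.034), Hspa5 (-0.39), Phgdh (-0.41), Trib3 (-0.68) and Xbp1 (0.16) in siSki8 3'READS, and Sesn2 in siPaf1 RNA-seq (0.081) and the direct 3'READS comparison (0.028). With the block and library size scaling, Asns in RNA-seq came to -0.17 in siCdc73 and 0.13 in the direct comparison, Atf4 in siCdc73 to -0.077, and Trib3 in the direct comparison to 0.036 in 3'READS and 0.047 in RNA-seq. This scaling moved the RNA-seq median of all genes in siSki8 from 0.02 to -0.23 and in siCdc73 from -0.02 to -0.19. Sesn2 in siPaf1 RNA-seq, at -0.01, came to 0.016 with DESeq2's size factors, 0.0029 with the least covered transcript and 0.0083 in DESeq2. The cause was not tested. Of 320 single-gene values under these other blocked settings, 301 kept direction and call.

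Without the block, DESeq2 called 519, 369, 6 and 159 RNA-seq genes, with 1 stress response gene each in siCdc73 and the direct comparison, and 632, 439, 0 and 196 in 3'READS. With no filter on low counts edgeR called 225, 149, 1 and 8 in RNA-seq, and 22 and 20 in siCdc73 and siPaf1 in 3'READS. The rule of a 1.4-fold change and Fisher p under 0.01 on pooled reads, which has no replicate error, gave 3554, 3121, 3170 and 2962 in RNA-seq (stress response genes 3, 2, 4 and 1) and 6837, 7137, 4538 and 7055 in 3'READS (6, 4, 4 and 5). Fisher's exact test on pooled reads gave 1989, 2272 and 1631 genes for 3'-most exon sites and 984, 1035 and 309 for the other sites, which numbered 35 in siCdc73 with all sites kept, and 145 and 149 in siCdc73 and siPaf1 with a mean of at least 5 reads. With the block, library size scaling called 3 stress response genes in siCdc73, 1 in siSki8 and 1 in the direct comparison in RNA-seq, and 1 each in siPaf1 and the direct comparison in 3'READS. DESeq2 with the block called 1 in the direct comparison in RNA-seq and 1 each in siPaf1 and the direct comparison in 3'READS, and no filter gave 2 in siCdc73 in RNA-seq.

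With 1 library left out at a time, each in 6 fits, the stress response genes called with the block ran from 1 to 3 in siCdc73, 1 to 2 in siPaf1, 0 to 3 in siSki8 and 1 to 3 in the direct comparison in RNA-seq, and from 0 to 3 in siPaf1 and 1 to 3 in the direct comparison in 3'READS. Without the block, the calls among all genes ran from 0 to 34 in siPaf1 in RNA-seq, and those among coding region and intronic sites from 2 to 103 in siCdc73 and 2 to 47 in siPaf1. The fold changes that changed sign were uncalled in the fit with all libraries. In siCdc73 they ran, in 3'READS, from -0.13 to 0.13 for Atf4, -0.96 to 0.15 for Chac1, -0.68 to 0.13 for Phgdh, -0.18 to 1.04 for Sesn2, -0.74 to 0.12 for Trib3 and -0.55 to 0.32 for Xbp1, and in RNA-seq from -0.19 to 0.25 for Asns, -0.031 to 0.48 for Sesn2 and -0.49 to 0.11 for Trib3. In siPaf1 they ran from -0.20 to 0.27 for Asns and -0.23 to 0.64 for Sesn2 in 3'READS, and from -0.27 to 0.19 and -0.32 to 0.27 in RNA-seq. In siSki8 3'READS they ran from -0.087 to 0.044 for Atf4, -0.82 to 0.29 for Chac1 and -0.33 to 0.55 for Xbp1. In the direct comparison they ran from -0.82 to 0.42 for Sesn2 and -0.55 to 0.30 for Trib3 in 3'READS, and from -0.27 to 0.14 for Asns, -0.56 to 0.043 for Sesn2 and -0.48 to 0.11 for Trib3 in RNA-seq. Proximal site use without the block ran from -0.37 to 1.28 in siCdc73 and -0.17 to 1.05 in siPaf1 for Atf4, and from -1.04 to 0.31 in siCdc73 and -0.16 to 0.69 in siSki8 for Ddit3.

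Replicates of a group number 2, and siSki8 has 1 library. Xbp1, Phgdh and Ddit3 in 3'READS and Trib3 in RNA-seq rest on few reads, as given beside them.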
